A study of Cavia porcellus with 10 samples.

Results

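The 45 genes described here encode the enzymes that build glycosaminoglycan chains and place sulfate on them, together with related sulfotransferases of the CHST family. The rule that chose them uses gene names and no measured value, although it was set with earlier results of these data known. It took from the 25028 Ensembl genes of a cervix transcriptome of Hartley guinea pigs the names that start with CHST, HS2ST, HS3ST, HS6ST, NDST, EXTL, CHSY, CHPF, XYLT, SULF or CSGALNACT plus EXT1, EXT2, UST, DSE, GLCE, B4GALT7, B3GALT6, B3GAT3 and UGDH. Cervical tissue was taken from 3 non-pregnant females in estrus (NP), 3 females at mid-term with an estimated gestation age of 43.6 ± 0.5 days (MT) and 4 at late term with 65.2 ± 1.2 days (LT), and each animal gave 1 library of poly A RNA. The gestation ages of the pregnant animals were estimated after death from the size of the fetuses, so a stage is a range and not an exact day. The labels name no transgene and no treatment. Of the names usually counted among these enzymes, B4GALT7, HS2ST1, HS3ST3A1, HS3ST3B1, SULF2, CHST5 and CHST6 were not analysed here because no row of the table carries them.

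Glycosaminoglycans are long sugar chains that are built in the Golgi apparatus on the core proteins of proteoglycans. Chondroitin, dermatan and heparan sulfate all start from the same short linker sugar on a serine of the core protein, and the next sugar added decides whether a chondroitin or a heparan chain follows, whereas keratan sulfate grows on sugar chains of another kind. Sulfotransferases and epimerases then work on the growing chain, and the pattern they leave sets which growth factors, protease inhibitors and collagens the chain can bind. In the cervix, proteoglycans with such chains lie between the collagen fibres, and the matrix is remodelled during pregnancy before the tissue opens at birth.

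RNA abundance is given as TPM, a relative abundance that corrects for gene length, so levels of different genes can be set side by side. Values after ± are the SD over the 3 NP, 3 MT or 4 LT animals. Each animal had between 18730665 and 27881572 reads counted on genes. Changes between stages were tested by limma on log2(TPM + 1) in 1 fit over the 10 animals, over the 13421 genes whose mean across all animals reached 1 TPM, and adjusted P-values are for all of these genes. Log2 fold changes (log2FC, with their standard error, SE) on this scale understate the change of genes of low abundance. The median of all genes tested was at a log2FC of -0.14 from NP to MT, -0.16 from MT to LT and -0.28 from NP to LT, and each gene has to be read beside this shift. Scaling each animal by the median ratio over genes takes this shift out. NP replicate 1 stood apart from the other NP animals, with 30779 TPM summed over the smooth muscle markers against 8182 and 10536 TPM. The tissue labelled cervix expressed the cervical genes PGR, ESR1, HOXA11, HOXA13 and EMX2 in every animal, with a sum between 189 and 662 TPM. These are bulk tissue values, so fewer cells of a type and less RNA per cell cannot be told apart.

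Of the 45 genes, 34 had a stage mean at or above the operational threshold of 3 TPM in NP, 36 in MT and 35 in LT. The mean was at or above it in every stage for 32 genes and in no stage for 8. CHPF was the most abundant gene of the group in each stage, with 175 ± 13.0 TPM in NP (SD, n = 3), 159 ± 20.8 TPM in MT (SD, n = 3) and 106 ± 8.41 TPM in LT (SD, n = 4). The sum over the 45 genes was 1163 ± 14.7 TPM in NP, 1117 ± 63.0 in MT and 1015 ± 36.1 in LT, and every LT animal but the highest, at 1058 TPM, lay below the lowest MT animal, at 1044 TPM. Not tested were 6 genes of low abundance, CHST13, HS3ST2, HS3ST4, HS6ST3, NDST3 and NDST4, which had from 0 to 29 reads in an animal.

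Between NP and MT, 8 of the 39 genes were called, which means an adjusted P under 0.05. HS3ST1, HS3ST5, CHST4 and CHST8 rose, while EXT1, EXTL3, GLCE and NDST1 fell. Among all genes tested, 6.07% rose and 11.9% fell, so the 20.5% called here stand beside 18% of all genes. The median log2FC was -0.09 over the 39 genes and -0.14 over all genes. After scaling by the median ratio 5 of the genes were called, the 4 that rose and EXT1. The same scaling turned the split of all genes called from 815 higher and 1595 lower to 1401 higher and 930 lower. The edgeR test on read counts called 6 of the genes, the same 4 as higher and EXT1 and NDST1 as lower, where it called 9.73% of all genes higher and 7.61% lower. The animals of NP and MT did not overlap for 13 of the 39 genes, with MT higher for 4 and lower for 9, beside 11.3% and 23.2% of all genes.

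Between MT and LT, 6 of the 39 genes were called. HS3ST6 rose, and HS3ST5, CHST1, CHPF, B3GAT3 and UST fell. Of all genes, 6.53% rose and 21.8% fell, so the share called here, 15.4%, was lower than the 28.3% of all genes, although the difference between the shares was not tested. The median of the 39 genes was -0.10 on the log2 scale and that of all genes -0.16. With median-ratio scaling 3 of the genes were higher and 3 lower, where all genes gave 1884 higher and 1923 lower against 877 and 2923 without it. With edgeR, EXT1 and EXT2 were higher and HS3ST5, CHST1, CHPF and B3GAT3 lower, where 13.0% of all genes were called higher and 15.0% lower. All LT animals lay below all MT animals for 8 of the 39 genes and above them for none, beside 34.9% and 10.6% of all genes.

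Over the whole span from NP to LT, 20 of the 39 genes were called, 5 higher (CHST4, CHST8, HS3ST1, HS3ST6 and UGDH) and 15 lower. This is 51.3% of the genes, and the 10.8% of all genes that rose and 41.1% that fell add up to 51.9%. The comparison shares its animals with the other 2 and is not independent of them. The median was -0.29 for these genes and -0.28 for all genes. Most of the lower calls depended on the scale of the libraries. With median-ratio scaling 8 genes were higher and 4 lower, and all genes then split into 3377 higher and 3081 lower, against 1446 and 5522 without it. In edgeR, 7 genes were higher and 4 lower, beside 23.0% of all genes higher and 24.9% lower. Without overlap of the animals, LT was higher than NP for 4 genes and lower for 16, beside 11.4% and 40.1% of all genes. The genes lower in edgeR were CHST1, CHST2, CHPF and NDST2. The genes higher were CHST4, CHST8, HS3ST1, HS6ST2, UGDH, CHST12 and EXT2. Without NP replicate 1 the numbers of genes called were 10 from NP to MT, 10 from MT to LT and 22 from NP to LT, against 32%, 40.9% and 59.8% of all genes.

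**Figure D1:**
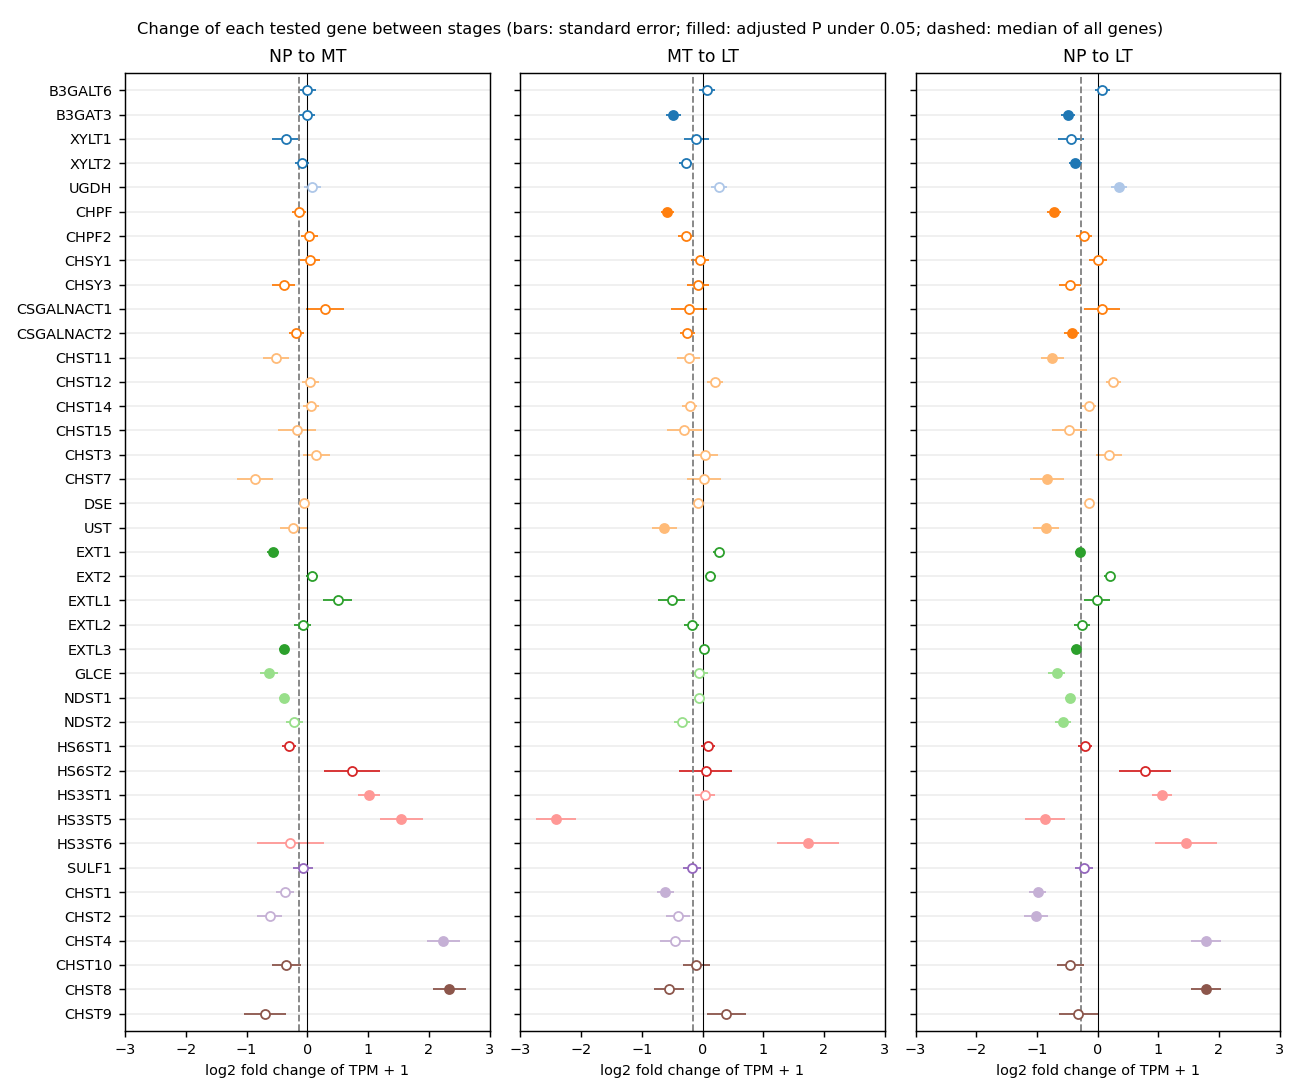
Each of the 39 tested genes is plotted by its log2FC of TPM + 1 (horizontal axis) in the 3 comparisons, coloured by role, with bars for the standard error, filled points for an adjusted P under 0.05 and a dashed line at the median of all genes. CHST4 and CHST8 lie above 2 from NP to MT, HS3ST5 lies at 1.55 from NP to MT and at -2.41 from MT to LT, and most other genes lie near the dashed line.

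Among the heparan sulfate enzymes, 3 of the 5 3-O-sulfotransferases with a row were tested, and each was called in at least 1 transition. From NP to MT 2 were called and from MT to LT 2, which is 66.7% of those tested, beside 18% and 28.3% of all genes. The 3-O-sulfotransferases add a rare sulfate to the glucosamine of the chain. HS3ST1 (ENSCPOG00000026153) is known for making the site on heparan sulfate that binds antithrombin. Its level was 31.9, 29.8 and 30.2 TPM in the NP animals, 52.3, 72.3 and 66.5 TPM in the MT animals, and 84.9, 68.8, 61.5 and 49.5 TPM in the LT animals. Every pregnant animal lay above every NP animal, and the MT and LT animals overlapped. From NP to MT the mean rose 2.08-fold, from 30.6 ± 1.13 TPM (SD, n = 3) to 63.7 ± 10.3 TPM (SD, n = 3), a log2FC of 1.02 (SE 0.18, adjusted P = 0.00556). Between MT and LT the log2FC was 0.04 (SE 0.17, adjusted P = 0.883). The gene moved from rank 12 by level among the 45 genes in NP to rank 5 in MT and LT. Its rise from NP to MT and from NP to LT kept an adjusted P under 0.05 under each of the 19 alternative settings.

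HS3ST5 (ENSCPOG00000020028), a further 3-O-sulfotransferase that can make antithrombin-binding sites, was high at mid-term and low on both sides of it. The NP animals had 5.42, 4.44 and 3.24 TPM, the MT animals 15.8, 17.5 and 10.8 TPM, and the LT animals 4.37, 1.87, 1.45 and 0.886 TPM. All MT animals were above all others, and LT replicate 1 was the one LT animal within the NP range. The mean rose 3.37-fold from NP to MT (log2FC 1.55, SE 0.35, adjusted P = 0.0153), and the call was lost without NP replicate 3 or without MT replicate 2, with a highest adjusted P of 0.0534. From MT to LT it fell from 14.7 ± 3.50 TPM (SD, n = 3) to 2.15 ± 1.54 TPM (SD, n = 4), a log2FC of -2.41 (SE 0.33, adjusted P = 0.00221), which held under each of the 19 alternatives. In terms of the operational threshold the gene was turned OFF in this transition. The exact permutation test over the 3 stages gave an unadjusted P = 0.00143, where the smallest P it can give is 0.000476. The lower level of LT against NP (log2FC -0.86, adjusted P = 0.049) was not called under 16 of the 19 alternatives, median-ratio scaling among them.

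HS3ST6 (ENSCPOG00000014346) belongs to the same enzyme family and had an uneven mid-term. Its values were 4.15, 2.80 and 1.68 TPM in NP, 7.92, 0.684 and 0.961 in MT, and 6.87, 8.86, 10.1 and 12.0 in LT. MT replicate 1 was within the LT range and the other MT animals were below every NP and LT animal. The mean was 3.19 ± 4.10 TPM in MT (SD, n = 3) and rose to 9.46 ± 2.15 TPM in LT (SD, n = 4), with a log2FC of 1.74 (SE 0.51, adjusted P = 0.0308), while edgeR gave an adjusted P of 0.104. The call was lost under 7 of the 19 alternatives, among them the replicate block and leaving out MT replicate 2 or 3 or LT replicate 2, 3 or 4 (highest adjusted P 0.128). Without MT replicate 1 the MT mean was 0.822 TPM, the log2FC from MT to LT was 2.50 (adjusted P = 0.00205), and that between NP and MT was -1.04 (adjusted P = 0.0449) where all animals gave -0.28 (adjusted P = 0.748). From NP to LT the log2FC was 1.46 (adjusted P = 0.0358), a call lost under 9 of the 19 alternatives.

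Squamous epithelium markers were set beside HS3ST6. Of 6 tested, 3 fell from NP to MT (IVL, SPRR3 and TGM1), KRT14 alone rose from MT to LT, and 3 fell from NP to LT, with a median log2FC of -0.92 from NP to LT where HS3ST6 was at 1.46. The share called was 50%, 16.7% and 50%, beside 18%, 28.3% and 51.9% of all genes. Of the 12 names in that list 7 had a row, and their summed level was 3235, 1048 and 1021 TPM in NP, 1232, 168 and 418 in MT, and 1497, 2352, 2594 and 2941 in LT. Within each stage the animals had the same order for HS3ST6 and for the marker sum, with NP replicate 1, MT replicate 1 and LT replicate 4 highest. Across stages the order differed, since NP replicate 1 had the highest marker sum of all animals and 4.15 TPM of HS3ST6. Most of the sum was KRT14, a keratin of basal cells, at 133 to 2820 TPM, and TP63 was at 25.5 to 54.0 TPM. SPRR3 was listed at 0 in MT replicates 2 and 3 and in all LT animals, and CRNN in 7 of the 10 animals. The part of squamous epithelium in the level of HS3ST6 was not tested.

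The remaining members of this family were near 0. HS3ST2 had at most 0.0549 TPM and HS3ST4 at most 0.278 TPM in an animal, which is at most 1 and 3 reads. The sum over the 5 genes with a row was 35.1 to 41.5 TPM in NP, 76.1 to 90.6 in MT and 62.3 to 96.2 in LT. HS3ST1 made up most of it in each stage, with a mean share of 80.9% in NP, 77.8% in MT and 84.6% in LT. The share of HS3ST5 was 11.4 ± 1.96% in NP, 18.0 ± 3.72% in MT and 2.58 ± 1.37% in LT (SD over animals), and the ranges of the stages did not meet. HS3ST6 took 7.44 ± 2.61%, 4.13 ± 5.44% and 12.8 ± 5.07% in the same order.

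**Figure D2:**
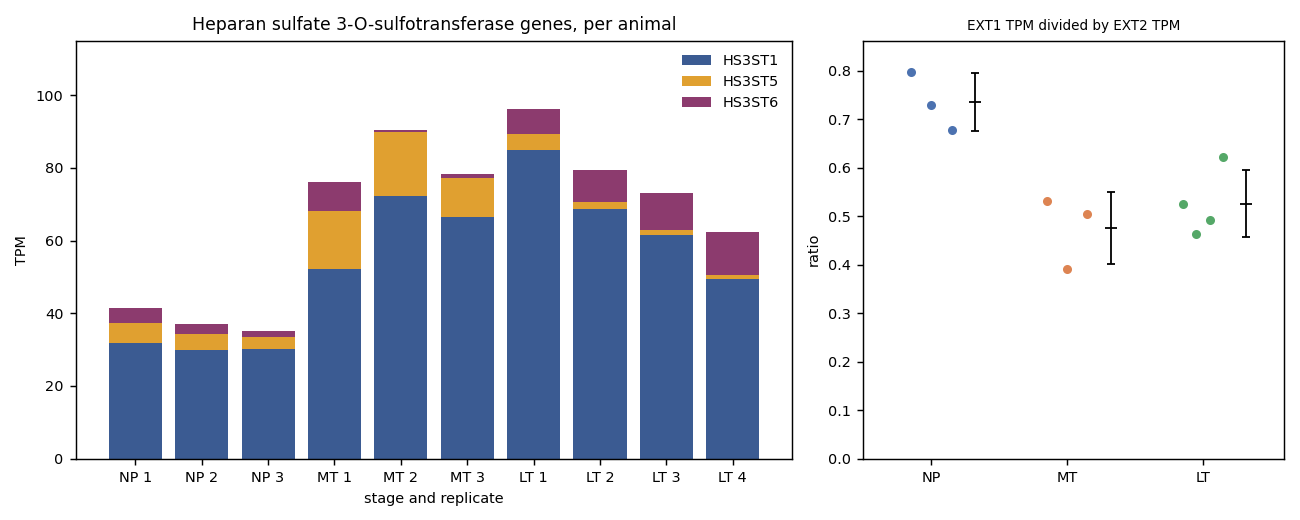
The left panel stacks the TPM of HS3ST1, HS3ST5 and HS3ST6 for each animal, and the right panel gives the ratio of EXT1 to EXT2 TPM per animal with the stage mean and SD. The stacks of the pregnant animals are taller than those of the NP animals, the HS3ST5 segment is widest in MT, and the EXT1 to EXT2 ratio of every NP animal lies above that of every pregnant animal.

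Among the enzymes that polymerize heparan sulfate, EXT1 and EXTL3 fell from NP to MT. EXT1 (ENSCPOG00000013024) and EXT2 (ENSCPOG00000011931) form the complex that lengthens the chain by turns of glucuronate and N-acetylglucosamine. EXT1 was between 64.8 and 66.3 TPM in NP, between 39.8 and 47.3 TPM in MT and between 47.2 and 58.8 TPM in LT. It fell from NP to MT by 0.56 on the log2 scale (SE 0.10, adjusted P = 0.00576), with every MT animal below every NP animal and the call kept under all 19 alternatives. From MT to LT it was 0.27 higher (adjusted P = 0.0529), which edgeR called at 0.46 (adjusted P = 0.0147). The level of LT against NP was -0.29 (adjusted P = 0.0274) and turned to 0.03 with median-ratio scaling and 0.01 in edgeR. EXT2 was 89.8 ± 8.32 TPM in NP, 94.0 ± 6.90 in MT and 103 ± 7.54 in LT. Limma on log2(TPM + 1) did not call it in any comparison. In edgeR its rise was called from NP to LT (0.50, adjusted P = 0.00192) and from MT to LT (0.31, adjusted P = 0.0312). With median-ratio scaling, also tested by limma, 2 of the 5 heparan polymerization genes were called higher from MT to LT and 1 from NP to LT.

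The EXT1 to EXT2 ratio was 0.735 ± 0.0601 in NP, 0.475 ± 0.0743 in MT and 0.526 ± 0.0697 in LT (SD over animals). The lowest NP value, 0.678, was above the highest LT value, 0.623, and the highest MT value, 0.531. The ratio lies within an animal and does not depend on the scale of the library. It shows that the 2 transcripts changed unequally and not which of them stayed level.

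EXTL3 (ENSCPOG00000013430) adds the first N-acetylglucosamine that commits the linker to heparan sulfate. It was 48.7 ± 1.09 TPM in NP, 36.8 ± 1.45 in MT and 37.7 ± 2.69 in LT, and fell from NP to MT by 0.39 on the log2 scale (adjusted P = 0.0126), with no overlap of the animals. That call was lost with median-ratio scaling (-0.25, adjusted P = 0.112), in edgeR (adjusted P = 0.0801) and with only the animals of NP and MT in the fit. EXTL2, a glycosyltransferase that acts on the linker, was 22.2 ± 1.56, 21.3 ± 4.43 and 18.5 ± 1.36 TPM in NP, MT and LT, and EXTL1, an N-acetylglucosamine transferase, 5.03 ± 0.432, 7.80 ± 2.93 and 5.04 ± 1.14 TPM. Neither passed the test in any comparison.

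After polymerization, N-deacetylase/N-sulfotransferases replace acetyl groups of the chain by sulfate and open it to the later steps. NDST1 (ENSCPOG00000002897) was between 41.2 and 46.3 TPM in NP, 31.0 and 34.6 in MT, and 30.4 and 32.1 in LT. It fell from NP to MT by 0.39 (adjusted P = 0.0126) and from NP to LT by 0.45 (adjusted P = 0.00123) on the log2 scale, and every pregnant animal lay below every NP animal. With median-ratio scaling these values were -0.25 (adjusted P = 0.0582) and -0.13 (adjusted P = 0.157). NDST2 was 25.0 ± 2.80 TPM in NP, 21.4 ± 3.63 in MT and 16.5 ± 1.24 in LT, with a change from NP to LT of -0.57 (adjusted P = 0.00479) that was also called by edgeR (-0.29, adjusted P = 0.0438) and not with median-ratio scaling (-0.26, adjusted P = 0.0678). NDST3 and NDST4 had at most 0.518 and 0.161 TPM.

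GLCE (ENSCPOG00000020608), the epimerase that turns glucuronate of the heparan chain into iduronate, was 52.7, 40.0 and 35.2 TPM in NP, 26.2, 26.6 and 27.7 in MT, and 22.5, 24.6, 27.4 and 29.9 in LT. Its NP animals were spread widely and all lay above the pregnant ones. The log2FC from NP to MT was -0.63 (SE 0.15, adjusted P = 0.0186). Without NP replicate 1, the highest NP animal, it was -0.47 (adjusted P = 0.0212). The call was lost under 6 of the 19 alternatives, among them median-ratio scaling (-0.49, adjusted P = 0.116) and edgeR (adjusted P = 0.0823). Summed over GLCE and the NDST genes, the NP animals had 103 to 116 TPM, the MT animals 79.1 to 84.2 TPM and the LT animals 70.9 to 76.5 TPM, and the stages did not overlap.

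The 6-O-sulfotransferases and the enzyme that takes 6-O-sulfate off again had no call in limma. HS6ST1 was 38.8 ± 2.40 TPM in NP, 31.3 ± 2.24 in MT and 33.5 ± 4.04 in LT, with each MT animal below each NP animal (log2FC -0.30, adjusted P = 0.0909). HS6ST2 was low and uneven, from 0.174 to 0.581 TPM in NP, 0.489 to 2.45 in MT and 0.351 to 3.61 in LT. For HS6ST2 the mean was 4.84-fold higher in LT than in NP, and edgeR gave a log2FC of 2.59 (adjusted P = 0.0456) on 3 to 93 reads per animal, while the NP and LT animals overlapped. HS6ST3 reached at most 0.629 TPM. SULF1, an extracellular endosulfatase, was 25.6 ± 4.12, 24.5 ± 4.91 and 21.5 ± 2.33 TPM in NP, MT and LT.

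**Figure D3:**
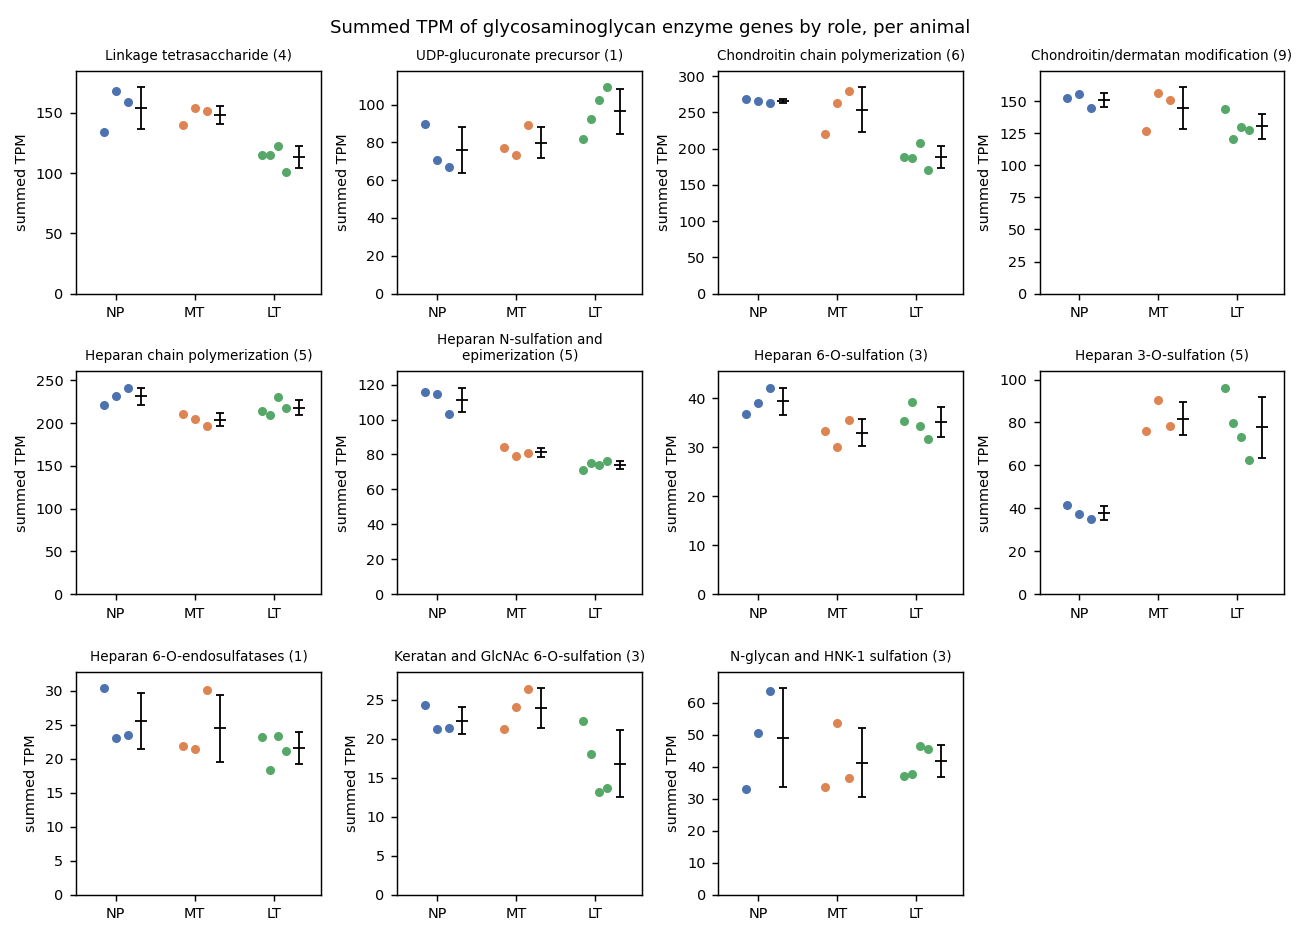
For each of the 11 roles the TPM summed over its genes with a row is plotted per animal, with the stage mean and SD beside the points and the number of genes in the title of each panel. The sum for 3-O-sulfation is 35.1 to 41.5 TPM in NP and 62.3 to 96.2 TPM in pregnant animals, while the sum for N-sulfation and epimerization is 103 to 116 TPM in NP and 70.9 to 84.2 TPM in pregnant animals.

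The linker sugar that chondroitin and heparan sulfate share is started by xylosyltransferases and ended by a glucuronyltransferase. B3GAT3 (ENSCPOG00000021841), which adds that last glucuronate, was 92.1, 125 and 118 TPM in NP, 105, 113 and 112 in MT, and 80.7, 81.4, 85.5 and 67.7 in LT. The LT animals lay below all others. From MT to LT it fell by 0.48 on the log2 scale (SE 0.12, adjusted P = 0.0155), a call lost only without MT replicate 2 (highest adjusted P 0.0578), and edgeR called it too (-0.31, adjusted P = 0.0307). XYLT2 was 22.6 ± 2.91, 21.1 ± 2.20 and 17.2 ± 0.623 TPM in NP, MT and LT, with a change of -0.37 from NP to LT (adjusted P = 0.0188) that became -0.06 with median-ratio scaling (adjusted P = 0.614). XYLT1 was 9.66 ± 2.89 TPM in NP and 6.75 ± 1.50 TPM in LT without a call, and B3GALT6, which adds the second galactose, stayed between 8.49 and 12.1 TPM in all animals.

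UGDH (ENSCPOG00000004550) makes UDP-glucuronate, a building block of chondroitin, heparan and hyaluronan chains. It was between 67.0 and 89.8 TPM in NP, 73.3 and 89.1 in MT, and 82.0 and 109 in LT, and the NP and LT animals overlapped through NP replicate 1. The log2FC from NP to LT was 0.35 (SE 0.13, adjusted P = 0.0498). Without NP replicate 1 it was 0.47 (adjusted P = 0.00994), and edgeR gave 0.63 (adjusted P = 0.0156). The limma call was lost under 13 of the 19 alternatives.

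Chondroitin chains are started by CSGALNACT1 and CSGALNACT2 and lengthened by complexes of CHSY1, CHSY3, CHPF and CHPF2. CHPF (ENSCPOG00000024521), the partner that the chondroitin synthases need for polymerization, was 189, 171 and 164 TPM in NP, 136, 164 and 176 in MT, and 95.6, 112, 113 and 102 in LT. Each LT animal was below each NP and MT animal. The level fell from MT to LT by 0.58 on the log2 scale (SE 0.11, adjusted P = 0.00527) and from NP to LT by 0.72 (adjusted P = 0.000574). With median-ratio scaling the first became -0.40 (adjusted P = 0.0539), and in edgeR it was -0.41 (adjusted P = 0.0471). Its share of the summed level of the 45 genes was 14.1 to 16.5% in NP, 13.0 to 15.3% in MT and 9.29 to 11.3% in LT.

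Of the other 5 polymerization genes only CSGALNACT2 was called, from NP to LT (15.5 ± 1.56 to 11.3 ± 1.30 TPM, log2FC -0.43, adjusted P = 0.0122). With median-ratio scaling it was at -0.13 (adjusted P = 0.334), and the call was lost under 5 of 19 alternatives. CSGALNACT1 varied among animals of a stage, with 15.8 TPM in NP replicate 1 and 19.1 TPM in MT replicate 1 against 28.5 to 37.7 TPM in the other NP and MT animals. CHSY1 was 27.0 ± 2.30, 27.8 ± 1.98 and 27.3 ± 5.85 TPM in NP, MT and LT, CHPF2 between 14.8 and 23.3 TPM, and CHSY3 between 1.21 and 2.99 TPM. The summed level of the 6 genes was 263 to 268 TPM in NP, 220 to 279 in MT and 171 to 208 in LT.

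Chondroitin sulfate carries sulfate mostly at position 4 or position 6 of N-acetylgalactosamine. Among the 4-O-sulfotransferases, CHST11 was 7.57 ± 0.681, 5.10 ± 1.48 and 4.14 ± 0.900 TPM in NP, MT and LT, with a fall from NP to LT of 0.75 on the log2 scale (adjusted P = 0.00941) that was not called with median-ratio scaling (-0.47, adjusted P = 0.065). CHST12 was 6.25 ± 0.408, 6.53 ± 0.647 and 7.70 ± 0.928 TPM. Its rise from NP to LT was called by edgeR (0.60, adjusted P = 0.00979) and not by limma on log2(TPM + 1) (0.26, adjusted P = 0.114). With median-ratio scaling 1 of the 8 tested genes of chondroitin and dermatan modification was called higher from NP to LT. CHST13 had at most 0.462 TPM. Of the 6-O-sulfotransferases, CHST3 was the more abundant, at 18.5 ± 5.76, 20.1 ± 3.50 and 20.6 ± 2.75 TPM, with no call. CHST7 was 3.71, 4.58 and 6.59 TPM in NP, 1.26, 2.88 and 2.79 in MT, and 1.73, 2.21, 3.80 and 1.79 in LT. Its stage mean was below 3 TPM in MT without a call (log2FC -0.86, adjusted P = 0.0702), and the call from NP to LT (-0.83, adjusted P = 0.0294) was lost under 8 of 19 alternatives, median-ratio scaling among them. The ratio of summed 6-O to summed 4-O sulfotransferase TPM was 1.65 ± 0.282 in NP, 1.90 ± 0.188 in MT and 1.91 ± 0.265 in LT, and the stages overlapped.

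Dermatan sulfate arises where DSE turns glucuronate into iduronate and CHST14 then sulfates the neighbouring sugar. DSE was 38.7 ± 0.862, 37.0 ± 1.41 and 35.0 ± 1.62 TPM in NP, MT and LT, and CHST14 was 53.5 ± 2.42, 55.9 ± 5.28 and 48.4 ± 7.25 TPM. Neither was called in any limma comparison, with log2FCs between -0.21 and 0.06. UST (ENSCPOG00000004092), which sulfates uronic acids of these chains at position 2, was 12.3, 14.9 and 13.5 TPM in NP, 9.55, 13.0 and 12.0 in MT, and 8.92, 4.42, 7.01 and 8.74 in LT. The LT animals were the lowest. The fall from MT to LT was 0.63 on the log2 scale (adjusted P = 0.0478) and was not called under 13 of 19 alternatives, median-ratio scaling among them, while the one from NP to LT, 0.85 (adjusted P = 0.00705), was lost only in edgeR (adjusted P = 0.0588). CHST15, which adds a second sulfate to 4-sulfated units, was 7.38 ± 3.33, 6.14 ± 1.74 and 4.70 ± 0.681 TPM with no call, and NP replicate 1, at 3.65 TPM, lay below all MT and LT animals.

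The CHST genes that do not act on chondroitin held the largest relative rises of the group. CHST4 (ENSCPOG00000021963) sulfates N-acetylglucosamine at position 6 on mucin-type sugars and is known for making ligands of L-selectin. Its level was 1.17, 1.71 and 1.06 TPM in NP, 9.11, 8.70 and 12.1 in MT, and 10.4, 8.71, 4.63 and 5.41 in LT. Every pregnant animal was above every NP animal. The mean rose 7.60-fold from NP to MT, with a log2FC of 2.24 (SE 0.27, adjusted P = 0.00105), and passed the operational threshold. Between MT and LT the log2FC was -0.45 (SE 0.25, adjusted P = 0.198).

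CHST8 (ENSCPOG00000000793) sulfates N-acetylgalactosamine at position 4 on N-linked sugars and is known from the pituitary glycoprotein hormones. It was 0.901, 1.17 and 0.626 TPM in NP, 6.40, 11.4 and 8.44 in MT, and 6.94, 7.13, 5.33 and 3.36 in LT. Again every pregnant animal was above every NP animal, and LT replicate 4 was the lowest of the pregnant animals. The rise from NP to MT was 9.73-fold, with a log2FC of 2.34 (SE 0.27, adjusted P = 0.000935), and the gene was turned ON by the operational threshold. From MT to LT the log2FC was -0.55 (SE 0.25, adjusted P = 0.124). For CHST4 and CHST8 the calls from NP to MT and from NP to LT held under each of the 19 alternatives, and the exact permutation test over the 3 stages gave P = 0.00429 and P = 0.00286.

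Of the markers of columnar and mucus epithelium, 12 names, 9 had a row, of which 6 rose from NP to MT, where 6.07% of all genes rose, and 2 from MT to LT, where 6.53% of all genes rose. Their sum was 930 to 1048 TPM in NP, 3289 to 5571 in MT and 7875 to 9405 in LT. AGR2 made up most of the sum in LT, at 5550 to 7560 TPM, while the mucin MUC5B was highest in MT, at 391 to 937 TPM against 281 to 407 TPM in LT. None of the 9 was at 0 in an animal, and MUC5AC and TFF3 were low, with at most 4.54 and 2.58 TPM. Without AGR2, left out after its values were seen, the other 8 markers summed to 790 to 841 TPM in NP, 2039 to 2960 in MT and 1847 to 2414 in LT, and the median log2FC of the 9 from MT to LT was 0.07. The part of this epithelium in the levels of CHST4, CHST8 and HS3ST1 was not tested.

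CHST1 (ENSCPOG00000000463), which sulfates the galactose of keratan sulfate, was lowest in LT. It was 6.04, 7.52 and 8.10 TPM in NP, 4.74, 5.18 and 6.12 in MT, and 2.87, 3.28, 3.29 and 3.09 in LT. The LT animals lay close together and below all others, and NP replicate 1 was within the MT range. The fall was 0.61 on the log2 scale from MT to LT (SE 0.14, adjusted P = 0.0115) and 0.99 from NP to LT (adjusted P = 0.000472), and both were called under each of the 19 alternatives. CHST2 (ENSCPOG00000026369), an N-acetylglucosamine 6-O-sulfotransferase like CHST4, was 11.9 to 17.1 TPM in NP, 7.42 to 10.1 in MT and 5.17 to 9.02 in LT. It fell from NP to LT by 1.01 (SE 0.20, adjusted P = 0.00243), which also held under each of the 19 alternatives. CHST4 thus made up little of the summed CHST1, CHST2 and CHST4 level in NP and was the most abundant of the 3 in MT and LT by stage mean, at 9.97 ± 1.86 and 7.29 ± 2.73 TPM.

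CHST9 shares the reaction of CHST8 and was not called, with 16.2 to 37.0 TPM in NP, 10.8 to 19.5 in MT and 13.0 to 27.9 in LT. It stayed the more abundant of the pair in every animal. CHST10, which makes the HNK-1 epitope of neural adhesion molecules, was 22.4 ± 5.65, 17.4 ± 5.12 and 15.8 ± 2.14 TPM in NP, MT and LT and was not called.

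**Figure D4:**
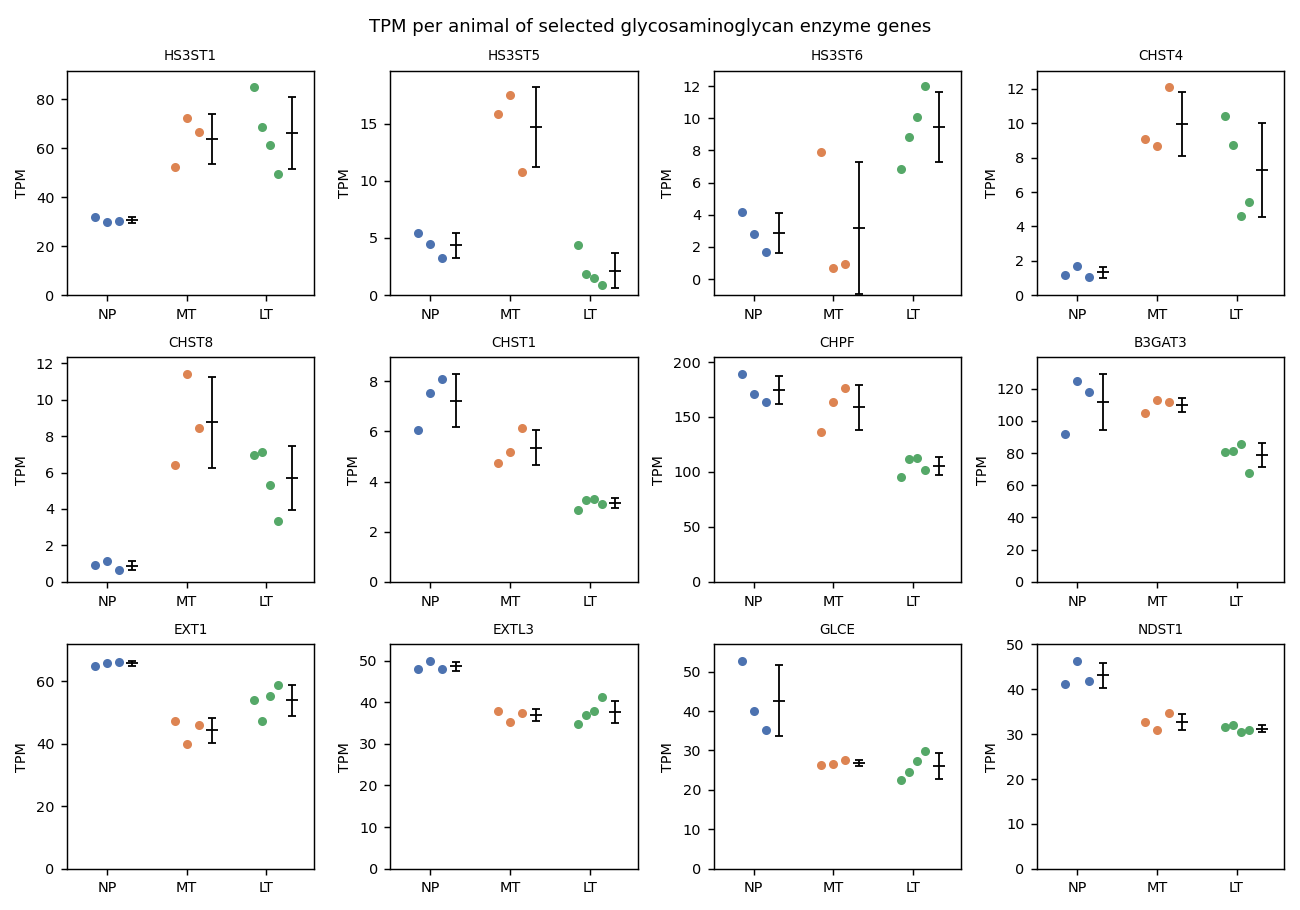
TPM per animal is plotted for 12 genes, with the stage mean and SD beside the points. HS3ST1, CHST4 and CHST8 are higher in every pregnant animal than in any NP animal, HS3ST5 is highest in the 3 MT animals, CHST1, CHPF and B3GAT3 are lowest in the 4 LT animals, and EXT1, EXTL3, GLCE and NDST1 are highest in the 3 NP animals.

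The genes around these enzymes were described by lists. PAPSS1, PAPSS2, BPNT2 and UAP1 of the list for sulfate donor and sugar nucleotides had no row and were not analysed. Of the 16 tested genes that supply sulfate donor and sugar nucleotides, 5 rose from NP to MT and none fell, 2 rose and 3 fell from MT to LT, and 6 rose and 2 fell from NP to LT. Of all genes, 6.07% rose and 11.9% fell from NP to MT, 6.53% and 21.8% from MT to LT, and 10.8% and 41.1% from NP to LT. With edgeR, and likewise with median-ratio scaling, 5 rose and 2 fell from MT to LT and 13 rose and 2 fell from NP to LT, where edgeR called 13.0% of all genes higher and 15.0% lower from MT to LT and 23.0% and 24.9% from NP to LT. The median log2FC of the list was 0.24, -0.05 and 0.16 in the 3 comparisons, beside -0.14, -0.16 and -0.28 for all genes. GFPT1, which controls the entry of glucose into UDP-N-acetylglucosamine, rose from 43.3 ± 2.17 to 104 ± 20.6 TPM between NP and MT (log2FC 1.23, adjusted P = 0.000695). SLC35A3, a Golgi carrier of that sugar nucleotide, rose from 9.58 ± 2.56 to 26.1 ± 6.19 TPM (1.37, adjusted P = 0.00245). BPNT1, a phosphatase that clears the by-product of sulfation, rose from 33.8 ± 6.01 to 53.5 ± 7.80 TPM (0.65, adjusted P = 0.0158), a call lost under 3 of 19 alternatives.

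Among 10 further assembly factors, 2 rose and 1 fell in each of the 3 comparisons, a share of 30% beside the 18%, 28.3% and 51.9% of all genes called in them. With median-ratio scaling 3 rose and none fell in each, and with the replicate block none was called from MT to LT (3 at an unadjusted P under 0.05). B3GNT7, which lengthens keratan chains by N-acetylglucosamine, was 6.83, 10.2 and 12.9 TPM in NP, 73.7, 43.7 and 82.4 in MT, and 90.6, 118, 137 and 139 in LT. The animals of no 2 stages overlapped, with log2FCs of 2.61 from NP to MT (adjusted P = 0.000593) and 0.88 from MT to LT (adjusted P = 0.0293). The second call was lost under 5 of 19 alternatives, the replicate block and leaving out MT replicate 2 or LT replicate 2, 3 or 4 (highest adjusted P 0.116). CANT1, a Golgi nucleotidase, rose from NP to MT by 0.49 (adjusted P = 0.0129), which was not called without MT replicate 3 (adjusted P = 0.0508). TMEM165, a Golgi ion transporter, changed by -0.44 (adjusted P = 0.0174) and then by 0.30 (adjusted P = 0.0468), calls that were lost under 6 (with median-ratio scaling) and 11 of the 19 alternatives. The Golgi tether GOLGB1 fell from MT to LT by 0.41 (adjusted P = 0.0478), a call lost under 13 of 19 alternatives, with median-ratio scaling too. Of 17 genes of chain degradation none was called from NP to MT by limma on log2(TPM + 1) (4 at an unadjusted P under 0.05). Both edgeR and median-ratio scaling called 3 of them higher. From MT to LT 2 fell, where 21.8% of all genes fell. These were IDS (-0.48, adjusted P = 0.0349) and SGSH (-0.40, adjusted P = 0.0239), lysosomal enzymes of heparan sulfate, and edgeR called neither. The calls were lost under 10 and 7 of the 19 alternatives, both of them with median-ratio scaling. With that scaling, and with edgeR, 1 of the 17 genes rose and none fell from MT to LT. From NP to LT 1 rose and 5 fell, where 10.8% of all genes rose and 41.1% fell. With median-ratio scaling, and with edgeR, 4 rose and 2 fell from NP to LT, where edgeR called 23.0% of all genes higher and 24.9% lower.

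Core proteins are the proteins to which the chains are attached. ACAN, DCN and PTPRZ1 of the chondroitin and dermatan list had no row and were not analysed. In the chondroitin and dermatan list 1 of 10 tested genes rose and 1 fell from NP to MT, 2 fell from MT to LT, and 1 rose and 4 fell from NP to LT. These are 20%, 20% and 50% of the list, beside 18%, 28.3% and 51.9% of all genes called. SPOCK2, a brain and matrix proteoglycan, was 88.3, 57.3 and 26.2 TPM in NP, 92.8, 154 and 119 in MT, and 10.1, 10.7, 8.06 and 5.29 in LT, a fall from MT to LT of 3.70 on the log2 scale (adjusted P = 0.00162). CSPG5 rose from 4.03 ± 0.652 to 17.9 ± 7.23 TPM between NP and MT (1.85, adjusted P = 0.0019) and fell to 1.42 ± 0.411 TPM in LT (-2.92, adjusted P = 0.00144). HS3ST5 likewise rose from NP to MT and fell from MT to LT. VCAN, the large matrix proteoglycan versican, fell from 67.6 ± 29.9 to 25.6 ± 3.05 TPM from NP to MT (-1.28, adjusted P = 0.0154), and was -0.96 without NP replicate 1 (adjusted P = 0.0186). In LT it was 41.3 ± 10.4 TPM, with every LT animal above every MT animal and no call from MT to LT (0.64, adjusted P = 0.102).

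In the list of 13 tested heparan sulfate core proteins, 1 rose from NP to MT, 2 rose and 3 fell from MT to LT, and 1 rose and 7 fell from NP to LT. These are 7.69%, 38.5% and 61.5% of the list, beside 18%, 28.3% and 51.9% of all genes called. With median-ratio scaling 3 rose and 2 fell from NP to LT, and with edgeR 2 rose and 2 fell. GPC6, a glypican anchored to the cell surface, was 0.168 to 1.43 TPM in NP, 14.2 ± 2.55 in MT and 13.8 ± 2.08 in LT. It rose from NP to MT by a log2FC of 3.20 (adjusted P = 0.000142) and differed by -0.05 between MT and LT (adjusted P = 0.906). SDC1, the epithelial syndecan, rose from MT to LT by 1.01 (adjusted P = 0.0282), a call lost under 6 of 19 alternatives (highest adjusted P 0.118). NRP1 (-1.16, adjusted P = 0.00597) and TGFBR3 (-0.98, adjusted P = 0.0116) fell, the latter not called without MT replicate 2 (adjusted P = 0.053). Of 6 keratan sulfate core proteins 1 rose and 1 fell in each of the transitions from NP to MT and from MT to LT. This is 33.3% of the list, beside 18% and 28.3% of all genes called. From NP to LT 2 fell and none rose, beside 51.9% of all genes called. With median-ratio scaling 4 rose and 2 fell from NP to LT, where 48.1% of all genes were called. FMOD rose from 303 ± 64.4 to 675 ± 68.3 TPM from NP to MT (1.17, adjusted P = 0.00334) and fell to 370 ± 77.6 TPM in LT (-0.88, adjusted P = 0.00674). LUM went the other way, with -0.67 (adjusted P = 0.0436, not called under 12 of 19 alternatives, median-ratio scaling among them) and then 0.91 (adjusted P = 0.00775).

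Marker lists of other cell types were also described, with no test over a list. The endothelial markers, with 6 of 8 names in the table, summed to 132 to 180 TPM in NP, 95.3 to 142 in MT and 53.3 to 86.8 in LT, and all 6 fell from NP to LT, where 41.1% of all genes fell. Smooth muscle markers summed to 12629 to 19006 TPM in MT and 19055 to 39457 TPM in LT, with 1 of 9 called from MT to LT, where 28.3% of all genes were called. The fibroblast list, most of it COL1A1 and COL1A2, had 5390 to 10185 TPM in MT and 6334 to 9447 TPM in LT. Of its 8 genes PDGFRA (-1.59, adjusted P = 0.00194) and PDGFRB (-0.56, adjusted P = 0.0332) fell from MT to LT and LUM rose, and PDGFRA, PDGFRB and FAP fell from NP to LT. The share called was 37.5% in both, beside 28.3% and 51.9% of all genes, and with median-ratio scaling 1 rose and 1 fell from MT to LT. The leukocyte list had 100.3 to 116 TPM in MT and 136 to 273 TPM in LT. No marker of the endothelial, smooth muscle and fibroblast lists was at 0 in an animal. The part of these cell types in the levels of the enzymes was not tested.

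**Figure D5:**
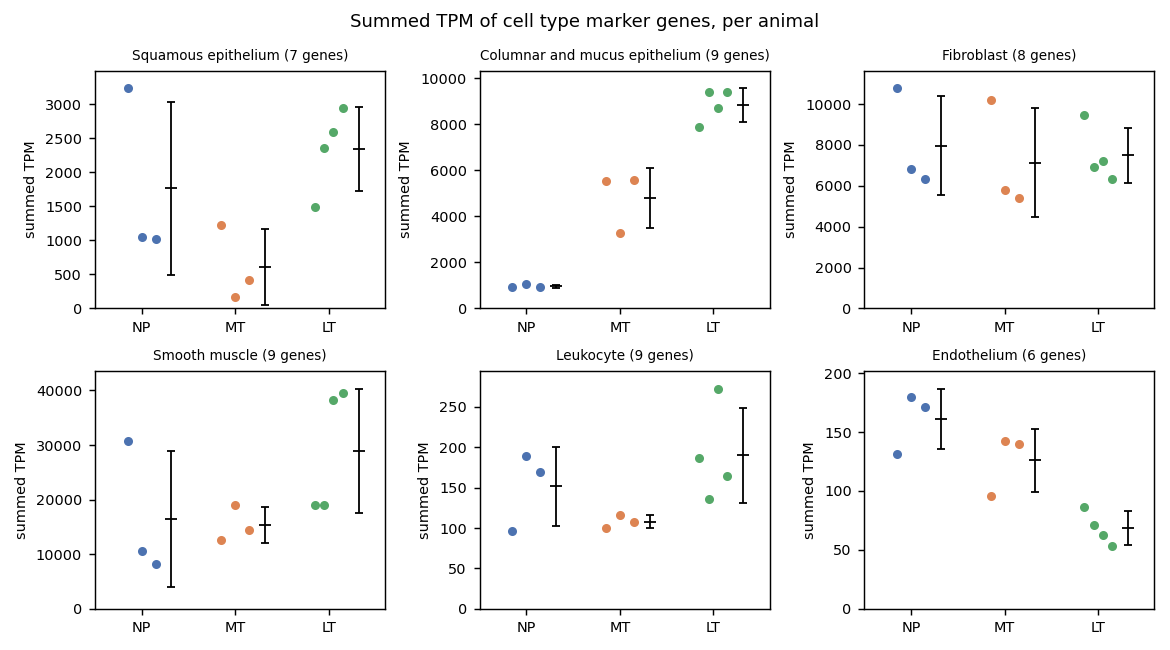
The TPM summed over each list of cell type markers is plotted per animal with the stage mean and SD, and the number of genes with a row is in the title of each panel. Columnar and mucus markers lie between 930 and 1048 TPM in NP and between 7875 and 9405 TPM in LT, endothelial markers are lowest in LT, and NP replicate 1 stands apart in the squamous and smooth muscle panels.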

How the data were processed

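Total RNA from the cervix of 10 guinea pigs was selected for poly A, and strand-specific libraries were read as single reads by Illumina sequencing. Per the labels and the study's methods, the authors used CASAVA 1.8.2, aligned reads with TopHat2 (version not given in the sources used here) to the guinea pig genome cavPor3.69, counted reads per Ensembl gene with HTSeq 0.5.4p1 and deposited the count of reads per gene and animal. A TPM value made by the authors from each count was deposited beside it, and TPM sums to 1000000 per animal, so a gene also moves with all others. No read was aligned again. The sequences and positions of the genes were not used here. Stranded counting and reads shared by near-identical genes were not checked.

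Genes were tested with limma 3.58.1 (R 4.3.3, trend) on log2(TPM + 1), with stage as the only term and Benjamini-Hochberg adjustment over 13421 genes. All tests were two-sided. The study's own scale, square-root TPM, served as an alternative and for exact permutation tests of single genes, which cannot give a P below 0.1 for 3 animals against 3 or 0.0286 for 3 against 4. edgeR 4.0.16 (quasi-likelihood, TMM factors from 0.923 to 1.138) and DESeq2 1.42.0 ran on the counts. The other alternatives were a pseudocount of 0.1, no filter (18100 genes), a mean of at least 3 TPM in a stage (12645 genes), median-ratio scaling, fits of only the 2 stages compared, a replicate block, and each animal left out in turn, 19 in all. The fitting code was tested on simulated data. Each animal is 1 library, and no 2 libraries of a stage agreed within sampling noise. Depth was 18730665 to 27881572 reads on genes.

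The genes and the lists around them were chosen with earlier results of these data known. Full values were given for genes with an adjusted P under 0.05 and a log2 fold change of at least 1 in size from NP to MT or from MT to LT, and per-animal values of other genes were added after these were seen. At most 4 genes were named of each surrounding list, by adjusted P and size of change. A gene that this rule named is not reported here. No test was made over a list or a sum of genes.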

Additional observations from a re-analysis of the deposited data

How the results depend on the processing

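The number of genes called from NP to MT (8) was 5 with median-ratio scaling and 5 with only the 2 stages in the fit, where all genes called went from 18% to 17.4% and 8.38%. From MT to LT (6 genes) it ranged from 3 without MT replicate 2 to 10 without NP replicate 1, where all genes called went from 28.3% to 14.4% and 40.9%. From NP to LT (20 genes) it was 12 with median-ratio scaling and 11 with edgeR. The share of the 39 genes went from 51.3% to 30.8% and 28.2%, where all genes called went from 51.9% to 48.1% and 48%. With single animals left out the number ranged from 13 without NP replicate 2 to 22 without NP replicate 1. All genes called were then 40.5% and 59.8%. The log2 fold change of EXT1 from NP to LT turned to 0.03 with median-ratio scaling, 0.01 in edgeR and 0.02 in DESeq2. That of HS3ST1 from MT to LT ranged from -0.09 to 0.17 with single animals left out, and that of HS3ST6 from NP to MT from -1.04 to 0.16, with 0.21 in edgeR and 0.23 in DESeq2. The causes were not tested. Of the single gene values under alternatives, 1191 kept direction and side of the threshold, 205 lost the call, 1 gained it and 9 turned direction. With the replicate block the genes called were 7, 4 and 16 in the 3 comparisons, and all genes called 1622, 1707 and 5576 against 2410, 3800 and 6968. Deviations of animals with the same replicate number correlated between -0.28 and 0.24 (9 pairs) and those with other numbers between -0.26 and 0.30 (24 pairs). These ranges gave no sign that the numbers pair the animals. With so few animals per stage they cannot exclude it. Genes under about 1 TPM rest on few reads, and their fold changes are less precise.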
